A study of Gallus gallus with 2 samples.

Results

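The genes described here are the POU4F and EBF transcription factors of the chick retina: POU4F1, POU4F2, POU4F3, EBF1, EBF2 and EBF3. They were chosen by name, with earlier results of these data known, and all 6 were present among the 23967 genes of the deposited tables. POU4F factors (also called BRN3) are POU-homeodomain proteins. In the mouse retina POU4F2 acts downstream of the proneural factor ATOH7 in newborn retinal ganglion cells (RGCs), the neurons that send axons through the optic nerve, and POU4F1 and POU4F3 take part in the later differentiation of RGC types. EBF factors (also called COE or OLF factors) are zinc finger helix-loop-helix proteins that are widely used by postmitotic neurons, and in the mouse retina they are found in RGCs and in other inner neurons. In the embryonic retina, OTX2 is a homeodomain factor best known for its requirement in photoreceptors.

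The data came from single-cell RNA sequencing (10x Chromium) of retinas from embryonic day 5 (E5) chick embryos that were electroporated and cultured as explants for 48 h. Electroporated cells with activity of the OTX2ECR2::GFP reporter, an enhancer element placed before GFP, were sorted, so the data describe cells in which that element was or had been active and not the whole retina. The OTX2CRISPR library ("ko retina" in its label) received Cas9 driven by the CAG promoter and a guide RNA against OTX2. The CTRL library ("wt retina") received the same reporter and the empty plasmid, with Cas9 and the guide scaffold but no targeting sequence, so that both libraries carried Cas9. By the study's methods, the CTRL retinas were the opposite eyes of the embryos that gave the mutant retinas. Each condition was 1 library made from several pooled retinas, and cells within a library are not replicates. There was therefore no replicate check and no test between conditions. Amplicon sequencing by the study found that most OTX2 reads of the sorted OTX2CRISPR cells were mutated, while a part were still wildtype. All intervals below are 95% intervals that cover counting error only, and UMIs (unique molecular identifiers, each standing for 1 captured transcript) from the same cell are not independent, so the true uncertainty is wider.

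After the cell filter of the study, 4928 OTX2CRISPR cells and 5073 CTRL cells remained, with 13206843 and 14773938 UMIs and medians of 2566 and 2779 UMIs per cell. OTX2 transcripts were at 761 CPM (the UMIs of a gene per 1000000 UMIs of the cells described) in OTX2CRISPR and 1745 CPM in CTRL. Because the 3′ assay counts transcripts whose reading frame may be disrupted, this level does not measure the protein. The libraries shared 38 cell barcodes. The 11 cone markers were all at least 2-fold lower in OTX2CRISPR, against 5.67% of all genes compared, with a summed level of 305 CPM against 5584 CPM in CTRL. Red blood cell, pigment epithelium and microglial markers were low in both libraries, at 0.53, 20.7 and 1.74 CPM in OTX2CRISPR and 0.203, 22.7 and 2.84 CPM in CTRL.

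Across whole libraries, all 6 factors were at higher levels in OTX2CRISPR than in CTRL. POU4F2 showed the largest ratio of the 6 and POU4F1 the smallest. The 6 of 6 that were at least 2-fold higher can be read against 8.71% of the 12937 genes with 20 or more UMIs, and the 0 of 6 that were lower against 5.67%. Whether POU4F1 passes the 2-fold limit depends on the cell filter, as given below. Since the levels are sums over sorted cells, a larger number of cells with a factor and more transcripts per cell both enter the ratio.

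POU4F1 is the POU4F member detected least often here. It had 96 UMIs in OTX2CRISPR and 44 UMIs in CTRL, or 7.27 and 2.98 CPM, a log2 ratio of 1.29 (interval 0.76 to 1.84). As a fold, this interval ran from 1.69 to 3.57 and so held the 2-fold limit. The cell filter had taken out 2 further POU4F1 UMIs in OTX2CRISPR and 19 in CTRL. With those cells returned, the POU4F1 ratio falls below 2-fold. POU4F2 had 635 UMIs in OTX2CRISPR, against 67 UMIs in CTRL. These correspond to 48.1 and 4.54 CPM and a log2 ratio of 3.41 (3.04 to 3.79), a 10.6-fold difference whose interval lay above that of each of the other 5 factors. POU4F3 was the most abundant POU4F member by UMIs in both libraries, with 1165 UMIs (88.2 CPM) in OTX2CRISPR and 304 UMIs (20.6 CPM) in CTRL, a log2 ratio of 2.10 (1.92 to 2.29).

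The EBF genes were also separated between the libraries. EBF1 reached 96.6 CPM in OTX2CRISPR, against 14.8 CPM in CTRL (log2 ratio 2.70, 2.50 to 2.92). EBF2 reached 33.6 CPM in OTX2CRISPR and 8.46 CPM in CTRL (log2 ratio 1.99, 1.70 to 2.29). EBF3 was at 359 CPM in OTX2CRISPR and 78.1 CPM in CTRL (log2 ratio 2.20, 2.11 to 2.29). EBF3 also gave the highest counts in single cells, up to 39 UMIs in 1 OTX2CRISPR cell and 31 UMIs in 1 CTRL cell, while no cell had more than 10 UMIs of any POU4F gene.

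The share of cells with a UMI followed the same order. Counted without correction for depth, 16.5% of OTX2CRISPR cells and 3.39% of CTRL cells held a POU4F UMI, and 30.9% of OTX2CRISPR cells and 6.31% of CTRL cells held an EBF UMI. After every cell was thinned at random to 1000 UMIs, which left out 92 shallower OTX2CRISPR cells and 57 shallower CTRL cells, these shares were 8.77% and 1.73% for POU4F and 19.8% and 3.47% for EBF. As a background, cells with 5 or more UMIs of RBP4 and 1 or more of RXRG, genes of the cone photoreceptor program, were used. Of the thinned CTRL cone cells, 0.411% had a POU4F UMI and 0.616% an EBF UMI, at a median depth of 2607 UMIs before thinning, close to the median of 2779 UMIs for the library. The OTX2CRISPR library had only 80 such cells, with 1 POU4F UMI and 3 EBF UMIs among them and a median depth of 1924 UMIs.

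The factors were then followed through 4 gates, that is, sets of cells defined by a UMI of a gene that is not one of the 6 factors. The RBPMS2 gate (1 or more UMIs of RBPMS2, an RNA-binding protein gene used as an RGC marker) held 397 OTX2CRISPR cells and 174 CTRL cells. The BRINP2/CRABP1 gate (1 or more UMIs of each gene, found together mainly in the mutant library) held 483 OTX2CRISPR cells and 15 CTRL cells. The LHX1 gate, for a LIM homeobox gene of type 1 horizontal cells, held 866 OTX2CRISPR cells and 242 CTRL cells. The TFAP2C gate, for an AP-2 factor gene of type 2 horizontal cells, held 172 OTX2CRISPR cells and 235 CTRL cells. Gates can overlap: 10 of the 15 CTRL cells of the BRINP2/CRABP1 gate also had RBPMS2, as did 35 of the 483 OTX2CRISPR cells, and 91 OTX2CRISPR cells and 19 CTRL cells had both LHX1 and TFAP2C.

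The labels of the gates were compared with marker sums, in lists that include the gate gene. A list drawn up for RGCs summed to 21799.8 CPM in OTX2CRISPR and 19305 CPM in CTRL inside the RBPMS2 gate, against 11849 and 5721 CPM in the whole libraries. This RGC list also holds genes shared with other neurons, such as STMN2, TUBB3, ELAVL4 and MAP1B. The type 1 horizontal cell list summed to 8552 CPM in OTX2CRISPR and 6805 CPM in CTRL inside the LHX1 gate, against 2396 and 949 CPM in the whole libraries. The type 2 list summed to 4887 CPM in OTX2CRISPR and 5130.4 CPM in CTRL inside the TFAP2C gate, against 1096 and 713 CPM in the whole libraries. The BRINP2/CRABP1 list summed to 5867 CPM in OTX2CRISPR and 1387 CPM in CTRL inside its gate, against 2254 and 276 CPM in the whole libraries. The gates were not pure. The RGC list was at 17979 CPM in OTX2CRISPR and 18943 CPM in CTRL in the BRINP2/CRABP1 gate, near its level in the RBPMS2 gate. In the TFAP2C gate the type 1 horizontal cell list was at 7312 CPM in OTX2CRISPR and 4006 CPM in CTRL, above the type 2 list in OTX2CRISPR. Both horizontal cell lists hold PROX1, TFAP2A and TFAP2B, and sums over different genes do not rank the cell types. The values given for a gate describe all cells within it.

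**Figure D1:**
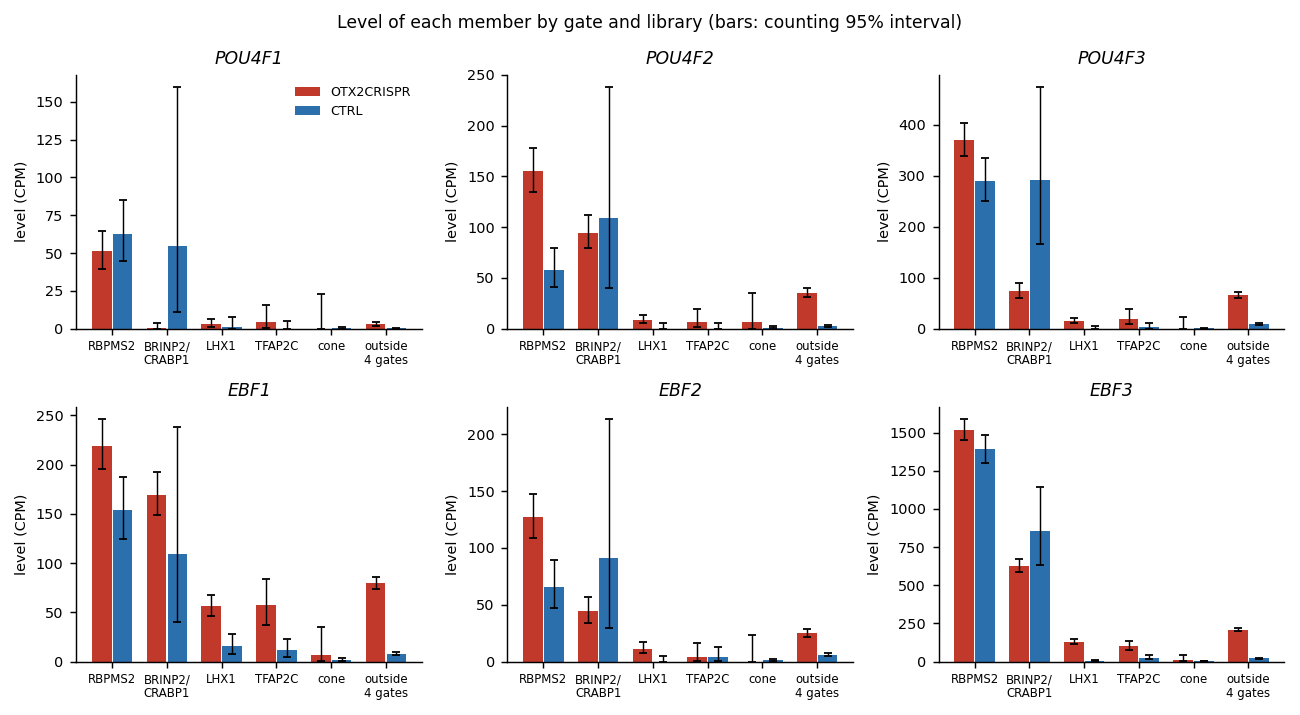
Level of each factor in CPM (UMIs per 1000000, linear axes that start at 0 and differ between panels) by gate, with OTX2CRISPR in red on the left of each pair and CTRL in blue on the right. Error bars are exact Poisson 95% intervals for counting error, with 1 library per condition. All 6 factors were highest in RBPMS2 cells in OTX2CRISPR, and the wide CTRL bars of the BRINP2/CRABP1 gate come from 15 cells.

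RBPMS2 cells had the highest level of every factor among the 4 gates in OTX2CRISPR, and the difference between the libraries was much smaller there than in the whole libraries. Only POU4F2 was at least 2-fold higher within the gate, 1 of 6 factors, against 4.18% of the 7910 genes tested there, and 0 of 6 were at least 2-fold lower, against 3.55%. POU4F2 had 209 UMIs (155 CPM) in OTX2CRISPR and 37 UMIs (58.0 CPM) in CTRL, a log2 ratio of 1.42 (0.91 to 1.97). It was detected in 113 of 397 OTX2CRISPR cells, against 24 of 174 CTRL cells, with means of 1.85 and 1.54 UMIs per positive cell. POU4F1 had 51.2 CPM in OTX2CRISPR and 62.7 CPM in CTRL (log2 ratio -0.29, -0.87 to 0.31), an interval that includes no difference. POU4F3 had 369 CPM in OTX2CRISPR and 290 CPM in CTRL (log2 ratio 0.35, 0.10 to 0.60), and its mean count per positive cell was 2.19 in OTX2CRISPR and 2.20 in CTRL.

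Within the same gate EBF3 was at 1519 CPM in OTX2CRISPR and 1391 CPM in CTRL (log2 ratio 0.13, 0.01 to 0.24). When 2 UMIs of RBPMS2 were required for the gate, the EBF3 ratio was -0.0037, so no direction is given for it. EBF3 was found in a larger share of RBPMS2 cells in OTX2CRISPR, 62.7% against 47.7% in CTRL, while each positive cell held fewer EBF3 UMIs, 8.22 in OTX2CRISPR and 10.7 in CTRL on average. EBF1 had 219 CPM in OTX2CRISPR and 154 CPM in CTRL (log2 ratio 0.52, 0.18 to 0.86). EBF2 had 127 CPM in OTX2CRISPR and 65.8 CPM in CTRL (log2 ratio 0.95, 0.45 to 1.47), just under the 2-fold limit. With 2 UMIs of RBPMS2 required, the POU4F2 ratio was 1.12 (0.42 to 1.88), while the intervals of POU4F3 (-0.16 to 0.56), EBF1 (-0.13 to 0.79) and EBF2 (-0.14 to 1.26) then included 0.

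The make-up of the RBPMS2 gate differed between the libraries. None of the 6 factors was detected in 63 of 397 OTX2CRISPR cells (15.9%) and 65 of 174 CTRL cells (37.4%). Among these factor-negative cells, TOP2A or MKI67, genes of dividing cells, were found in 23.8% of thinned OTX2CRISPR cells and 40.0% of thinned CTRL cells, against 3.01% and 8.26% of the RBPMS2 cells with a factor. The cone markers of the gate summed to 74.9 CPM (101 UMIs) in OTX2CRISPR and 1480.2 CPM (945 UMIs) in CTRL. Of the 11 listed, 6 had enough UMIs to be tested. All 6 were at least 2-fold lower in OTX2CRISPR, against 3.55% of all genes tested in the gate. RBP4 alone was at 34.1 CPM in OTX2CRISPR and 1032 CPM in CTRL. In RBPMS2 cells with a factor, RBP4 was at 6.83 CPM in OTX2CRISPR and 166 CPM in CTRL. The part of these cells in the ratios of the gate was not tested.

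RBPMS2 cells with and without a factor differed in RGC genes in each library. ISL1, a LIM homeobox gene of RGCs, was at 651 CPM in factor-positive and 33.7 CPM in factor-negative OTX2CRISPR cells, and at 828 CPM in factor-positive and 72.6 CPM in factor-negative CTRL cells. GAP43, which encodes a growth cone protein, was at 737 and 152 CPM in the same OTX2CRISPR cells and at 738 and 83.0 CPM in the CTRL cells. NRN1, the gene of the surface protein neuritin, was at 287 CPM in the factor-positive OTX2CRISPR cells and 256 CPM in the factor-positive CTRL cells, and had no UMI in the factor-negative cells of either library. Factor-positive RBPMS2 cells were also deeper, with medians of 3422 UMIs in OTX2CRISPR and 3886 UMIs in CTRL, against 2729 and 2805 UMIs in factor-negative cells.

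**Figure D2:**
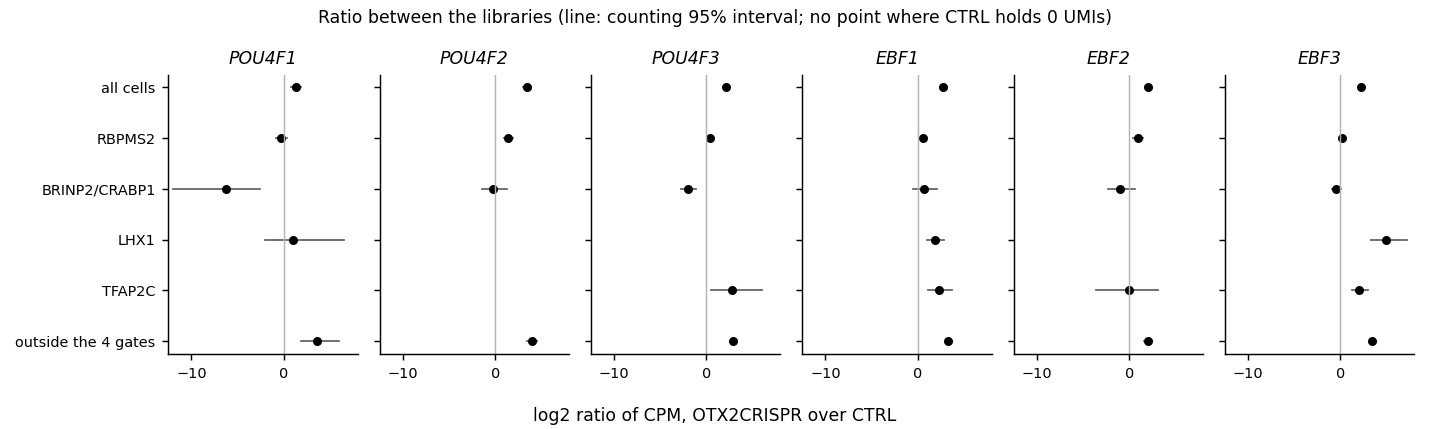
Log2 ratio of CPM, OTX2CRISPR over CTRL, for each factor in whole libraries, in the 4 gates and in the cells outside them. Points are ratios, lines are 95% counting intervals, the vertical line marks no difference, and no point is drawn where CTRL had 0 UMIs. The ratios of the RBPMS2 gate lie nearer 0 than those of all cells for all 6 factors.

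BRINP2/CRABP1 cells of the OTX2CRISPR library carried POU4F2 and POU4F3 but almost no POU4F1. Among 483 cells, POU4F2 had 132 UMIs in 71 cells (94.7 CPM), POU4F3 had 103 UMIs in 75 cells (73.9 CPM), and POU4F1 had 1 UMI. To compare gates without shared cells, those with all 3 gate genes were set aside, leaving 362 RBPMS2 cells and 448 BRINP2/CRABP1 cells in OTX2CRISPR. POU4F1 then had 68 UMIs (55.1 CPM) in the RBPMS2 cells, against 0 UMIs in the BRINP2/CRABP1 cells, and the lower end of the counting interval of this log2 ratio was 4.22. The other factors were also higher in the RBPMS2 cells, by unequal amounts. The log2 ratio of RBPMS2 over BRINP2/CRABP1 cells was 0.81 for POU4F2 (0.46 to 1.16) and 2.64 for POU4F3 (2.29 to 3.0), with intervals that did not overlap. For the EBF genes it was 0.42 for EBF1 (0.15 to 0.69), 1.85 for EBF2 (1.36 to 2.37) and 1.41 for EBF3 (1.29 to 1.54). POU4F2 and EBF1 were therefore the factors whose levels in the BRINP2/CRABP1 cells came nearest to those of RBPMS2 cells.

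The same shift appears in the share of POU4F UMIs that each gene supplied. In OTX2CRISPR, POU4F2 gave 55.9% of the 236 POU4F UMIs in the BRINP2/CRABP1 gate (49.4 to 62.4%) and 26.9% of the 776 in the RBPMS2 gate (23.8 to 30.2%). In RBPMS2 cells of CTRL it gave 14.1% of 262 POU4F UMIs (10.1 to 18.9%), and in whole libraries 33.5% in OTX2CRISPR and 16.1% in CTRL. POU4F1 gave 5.06% of all POU4F UMIs in OTX2CRISPR and 10.6% in CTRL. These shares compare cells for the same gene, since capture may differ between genes.

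**Figure D3:**
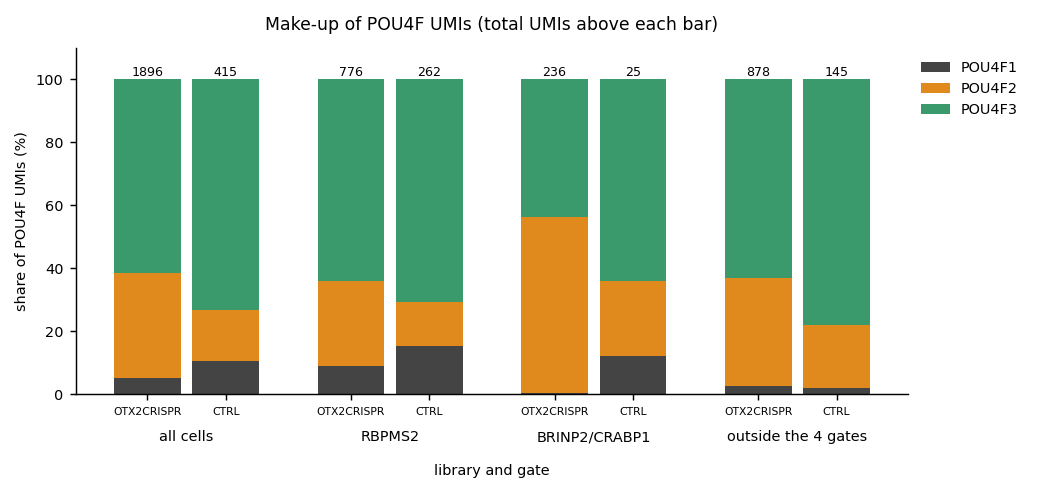
Share of POU4F UMIs (%) from POU4F1, POU4F2 and POU4F3 in whole libraries, in 2 gates and outside the 4 gates, OTX2CRISPR left and CTRL right in each pair, with the total of POU4F UMIs above each bar. POU4F2 supplies 55.9% in the BRINP2/CRABP1 cells of OTX2CRISPR, and the CTRL bar beside it rests on 25 UMIs.

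The comparison between the libraries inside the BRINP2/CRABP1 gate rests on 15 CTRL cells with 54795 UMIs in all. Of the 5 factors with 20 or more UMIs there, 0 were at least 2-fold higher and 2 at least 2-fold lower in OTX2CRISPR, against 9.22% and 21.5% of the 7020 genes tested. POU4F3 had 103 UMIs (73.9 CPM) in OTX2CRISPR, against 16 UMIs (292 CPM) in CTRL, a log2 ratio of -1.98 (-2.75 to -1.12). EBF2 had 62 and 5 UMIs, with an interval of -2.34 to 0.64. POU4F2, with 132 UMIs in OTX2CRISPR and 6 UMIs in CTRL, was at 94.7 and 109 CPM. POU4F1 had 1 UMI in OTX2CRISPR and 3 UMIs in CTRL, all 3 in the same cell. With either BRINP2 or CRABP1 enough to enter the gate, the POU4F3 ratio turned to 1.02, and the ratios were 2.77 for POU4F2, 2.01 for EBF1, 1.32 for EBF2 and 1.26 for EBF3, so the direction follows the definition of the gate. The 15 CTRL cells had a BRINP2/CRABP1 marker sum of 1387 CPM, against 5867 CPM in the OTX2CRISPR cells of the gate. This marker list includes both gate genes and was chosen with earlier results of these data known, so the sums only describe the cells.

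OTX2CRISPR BRINP2/CRABP1 cells with a POU4F UMI, 116 of 483, were set beside the 367 without. ISL1 was at 135 CPM in the cells with POU4F and 23.6 CPM in those without. GAP43 was at 395 and 185 CPM in these cells, and SP8, a zinc finger gene found in RGCs, at 376 and 149 CPM. OTX2 transcripts were at 509 CPM in the cells with POU4F and 923 CPM in those without, and OLIG2, a basic helix-loop-helix gene of restricted progenitors, at 480 and 930 CPM. ONECUT3, a cut-homeodomain gene, was at 750 and 744 CPM in the same cells, with counting intervals that overlap. An EBF UMI was present in 81.0% of the cells with POU4F and 55.3% of those without, at median depths of 3103 and 2659 UMIs.

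LHX1 cells had low levels of the factors, but the libraries differed. Of the 4 factors with 20 or more UMIs in the gate, all 4 were at least 2-fold higher in OTX2CRISPR, against 7.41% of the 8898 genes tested (and 0 lower, against 4.78%), with a gene at 0 in a library counted at the limit of 3 UMIs. POU4F3 and EBF2, at 0 UMIs in CTRL, reached 20 UMIs through OTX2CRISPR alone. With CTRL put at 3 UMIs such a gene must pass 2-fold, so the calls of POU4F3 and EBF2 were fixed by these limits. EBF3 had 273 UMIs in 72 of 866 OTX2CRISPR cells, against 3 UMIs in 3 of 242 CTRL cells. This gave 129 and 4.29 CPM and a log2 ratio of 4.91 (3.35 to 7.19). EBF1 had 119 UMIs (56.1 CPM) in OTX2CRISPR and 11 UMIs (15.7 CPM) in CTRL, a log2 ratio of 1.83 (0.94 to 2.88). POU4F3 had 33 UMIs in OTX2CRISPR and 0 in CTRL, at least 3.63-fold higher when CTRL is put at its floor of 3 UMIs. At the same floor EBF2, with 24 UMIs in OTX2CRISPR and 0 in CTRL, was at least 2.64-fold higher, and POU4F2, with 19 UMIs and 0, at least 2.09-fold higher. These floors leave out the counting error of the OTX2CRISPR UMIs, and the lower ends of the counting intervals of the ratios were 2.79-fold for POU4F3, 1.98-fold for EBF2 and 1.54-fold for POU4F2. POU4F1 had 6 UMIs in OTX2CRISPR and 1 UMI in CTRL, a 1.98-fold ratio whose interval ran from 0.24 to 91.0.

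Cells with both LHX1 and an EBF gene were 166 of 866 in OTX2CRISPR (19.2%) and 14 of 242 in CTRL (5.79%). In OTX2CRISPR these cells had less LHX1 than the LHX1 cells without EBF, 642 against 1323 CPM. They also had less ONECUT2, another cut-homeodomain gene of horizontal cell precursors, at 1394 against 3055 CPM. CRABP1, which encodes a retinoic acid binding protein, was at 2779 CPM in the LHX1 cells with EBF and 281 CPM in those without. The lower LHX1 and ONECUT2 levels were not seen in the 14 CTRL cells with EBF. There LHX1 was at 1070 CPM, against 970 CPM in CTRL LHX1 cells without EBF, with overlapping intervals. ONECUT2 was at 2460 CPM (2056 to 2919) in these 14 cells and 1843 CPM (1740 to 1950) without EBF. CRABP1 was at 244 and 20.1 CPM in the same CTRL cells. Of the 866 OTX2CRISPR cells with LHX1, 40 were also in the BRINP2/CRABP1 gate, against 0 of 242 in CTRL. With cells in 1 gate only, the EBF3 ratio of the LHX1 gate was 4.93, but it was 2.55 (0.61 to 5.64) with 2 UMIs of LHX1 required and 2.6 (1.88 to 3.43) with all deposited barcodes. The ratio of the summed EBF UMIs was 3.29, and 1.63 and 2.38 under the same changes. The summed cone markers of the LHX1 gate were at 146 CPM (310 UMIs) in OTX2CRISPR and 6141 CPM (4296 UMIs) in CTRL. Of the 11 listed, 10 were tested, and all 10 were at least 2-fold lower in OTX2CRISPR, against 4.78% of all genes tested in the gate. The part of this difference in the factor ratios was not tested.

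TFAP2C cells had few UMIs of any factor. LHX1 was also present in 52.9% of the TFAP2C cells in OTX2CRISPR and 8.09% in CTRL, so the make-up of the gate differed between the libraries. The 2 factors with 20 or more UMIs, EBF1 and EBF3, were both at least 2-fold higher in OTX2CRISPR, against 7.4% of the 6201 genes tested, and 0 lower, against 2.69%. EBF1 had 26 UMIs in 20 OTX2CRISPR cells and 8 UMIs in 8 CTRL cells, a log2 ratio of 2.30 (1.11 to 3.65). EBF3 had 46 UMIs in 12 OTX2CRISPR cells, against 17 UMIs in CTRL that all lay in 1 cell. RBPMS2 was also present in 12 OTX2CRISPR cells and 10 CTRL cells of the gate. In the other TFAP2C cells EBF3 had 26 UMIs in OTX2CRISPR and 0 in CTRL, POU4F3 had 5 and 0, and EBF1 had 22 and 7. The summed EBF ratio of the gate was 2.0, but 3.12 with cells in 1 gate only and 3.49 without the deepest 5% of cells, and the EBF1 ratio was 0.48 (-3.10 to 3.61) with 2 UMIs of TFAP2C required. POU4F3 had 9 UMIs in 4 OTX2CRISPR cells and 2 UMIs in 1 CTRL cell, a 6.80-fold ratio with an interval of 1.41 to 64.7. POU4F1 and POU4F2 had 2 and 3 UMIs in OTX2CRISPR and 0 in CTRL, too few for a ratio. EBF2 had 2 UMIs in OTX2CRISPR and 3 UMIs in CTRL.

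A part of the signal lay outside the 4 gates. Cells outside the gates were 65.0% of OTX2CRISPR cells and 87.7% of CTRL cells. They held 8436789 of 13206843 UMIs in OTX2CRISPR and 12848992 of 14773938 UMIs in CTRL. For each factor the share of UMIs outside the gates was below these shares of cells. EBF3 had 36.9% of its UMIs there in OTX2CRISPR (35.5 to 38.3%) and 22.3% in CTRL (19.9 to 24.8%), and POU4F3 had 47.6% in OTX2CRISPR (44.7 to 50.6%) and 37.2% in CTRL (31.7 to 42.9%). EBF2 ran the other way, with 47.5% outside the gates in OTX2CRISPR (42.8 to 52.3%) and 62.4% in CTRL (53.3 to 70.9%). For POU4F2 (47.1% in OTX2CRISPR and 43.3% in CTRL) and EBF1 (52.7 and 47.5%) the intervals overlapped. In the RBPMS2 gate, EBF3 had 43.3% of its UMIs in RBPMS2 cells in OTX2CRISPR, against 77.0% in CTRL. The RBPMS2 gate held 32.9% of POU4F2 UMIs in OTX2CRISPR and 55.2% in CTRL, and 42.7% of POU4F3 UMIs in OTX2CRISPR and 60.9% in CTRL. POU4F1 was the factor most concentrated there, with 71.9% of its UMIs in OTX2CRISPR and 90.9% in CTRL. For EBF2 the RBPMS2 shares, 38.5% in OTX2CRISPR and 33.6% in CTRL, had overlapping intervals. The BRINP2/CRABP1 gate held 14.0% of EBF2 UMIs in OTX2CRISPR (10.9 to 17.5%) and 4% in CTRL (1.31 to 9.09%). That gate also held unlike shares of all cells, 9.80% in OTX2CRISPR and 0.296% in CTRL. In OTX2CRISPR, EBF2 was at 44.5 CPM in the gate and 33.6 CPM in the whole library. In CTRL it was at 91.2 CPM in the gate, from 5 UMIs, and 8.46 CPM in the whole library. In cells outside the 4 gates, which include cells with BRINP2 alone or CRABP1 alone, POU4F2 was at 35.4 CPM in OTX2CRISPR and 2.26 CPM in CTRL (log2 ratio 3.97, 3.42 to 4.58) and EBF3 had 1746 UMIs in OTX2CRISPR and 257 UMIs in CTRL (3.37, 3.18 to 3.57). At this depth a cell without a UMI of a gate gene may still express it.

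Further gates, for dividing OLIG2 cells, PTF1A cells and multipotent progenitors, were also examined. In cells with a UMI of both OLIG2 and TOP2A, EBF1 was at 39.6 CPM in OTX2CRISPR and 8.26 CPM in CTRL (log2 ratio 2.26, 1.74 to 2.81), POU4F2 at 9.66 and 2.21 CPM (2.12, 1.09 to 3.27), and POU4F1 had 3 UMIs in OTX2CRISPR and 1 UMI in CTRL. POU4F3 was at 11.6 and 1.41 CPM in these cells (3.04, 1.85 to 4.45). EBF3 was at 46.0 and 12.9 CPM (1.84, 1.40 to 2.29), and EBF2 at 10.6 and 3.83 CPM (1.47, 0.62 to 2.37). Cells with PTF1A, a bHLH gene of horizontal and amacrine precursors, had EBF3 at 58.9 CPM in OTX2CRISPR and 4.06 CPM in CTRL (3.86, 2.45 to 5.76). EBF1 was also higher there in OTX2CRISPR (2.43, 1.43 to 3.61), and POU4F2 had 12 UMIs in OTX2CRISPR and 1 UMI in CTRL. The intervals of POU4F3 (0.79, -0.20 to 1.88) and EBF2 (1.01, -0.50 to 2.82) included 0. POU4F1 had 7 UMIs in OTX2CRISPR and 0 in CTRL. In NR2E1 cells, a gate for multipotent progenitors, POU4F1 had 0 UMIs in both libraries. POU4F3 had 22 UMIs in OTX2CRISPR and 4 UMIs in CTRL, all 4 in 1 cell. POU4F2 had 1 UMI in OTX2CRISPR and 5 UMIs in CTRL, all 5 in 1 cell. The EBF genes were higher in the NR2E1 cells of OTX2CRISPR, from few UMIs. EBF3 had 33 UMIs in OTX2CRISPR and 4 in CTRL (3.41, 1.92 to 5.37). EBF1 had 22 and 6 UMIs (2.24, 0.89 to 3.83), and EBF2 had 7 and 1 (3.17, 0.21 to 8.67).

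Most cells with a factor showed 1 of the 6, but some carried several. Exactly 1 factor was detected in 907 OTX2CRISPR cells and 241 CTRL cells, 2 in 415 and 48 cells, and 3 in 232 and 41 cells. At least 4 of the 6 were detected in 168 OTX2CRISPR cells and 42 CTRL cells, and all 6 in 2 OTX2CRISPR cells and no CTRL cell. A POU4F and an EBF gene were detected together in 614 OTX2CRISPR cells (12.5%) and 120 CTRL cells (2.37%). POU4F without EBF was found in 200 and 52 cells, and EBF without POU4F in 908 OTX2CRISPR cells (18.4%) and 200 CTRL cells (3.94%). Among POU4F-positive cells, 75.4% in OTX2CRISPR (72.3 to 78.4%) and 69.8% in CTRL (62.3 to 76.5%) also had an EBF gene. Among EBF-positive cells, 40.3% in OTX2CRISPR and 37.5% in CTRL had POU4F. After thinning these shares were 57.1% and 52.9% for EBF in POU4F-positive cells, and 25.3% and 26.4% for POU4F in EBF-positive cells. The overlap of the families thus had overlapping counting intervals in the libraries, while the numbers of cells differed widely.

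**Figure D4:**
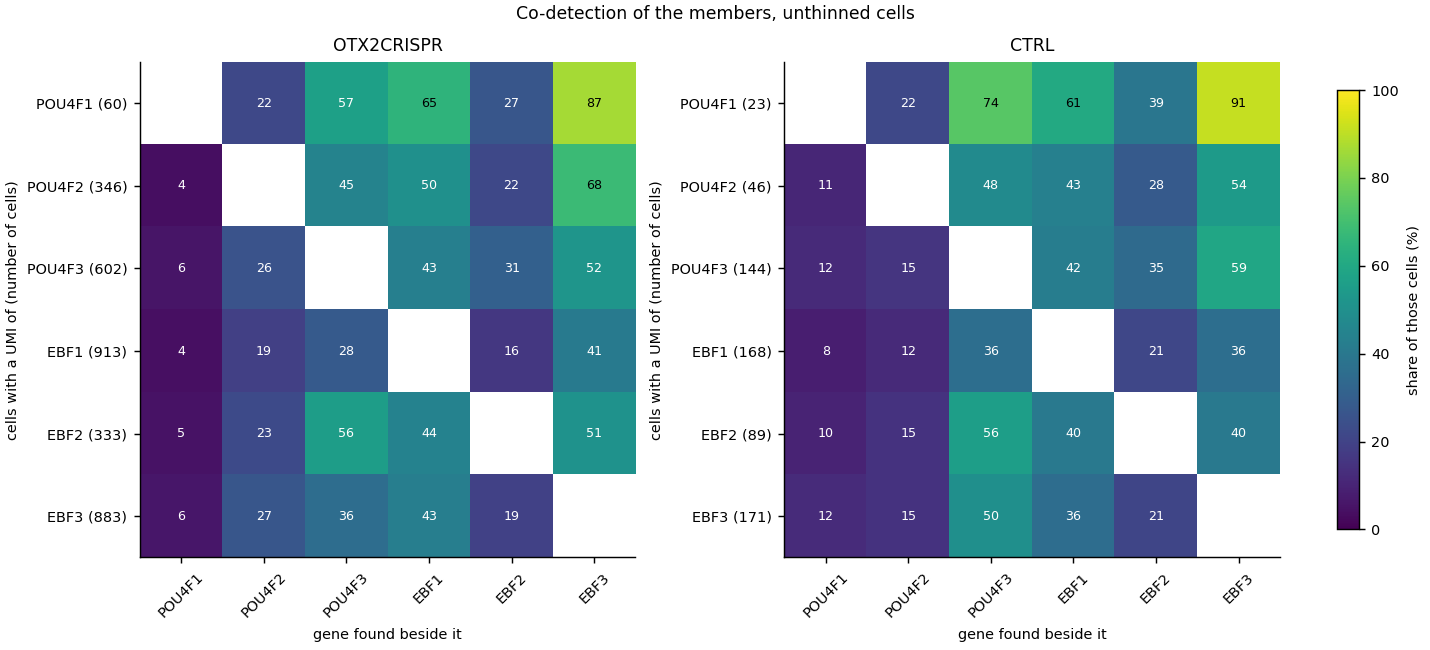
Share of cells (%) with a UMI of the row gene that also had a UMI of the column gene, OTX2CRISPR left and CTRL right, in cells that were not thinned, with the number of row-positive cells in parentheses. POU4F1-positive cells had EBF3 most often, 86.7% in OTX2CRISPR and 91.3% in CTRL, and few cells of any other factor had POU4F1.

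Pairs within the RBPMS2 gate of OTX2CRISPR, where the factors were best measured, were not alike. All 37 POU4F1-positive cells had EBF3, and none of the 148 EBF3-negative cells had POU4F1 (0 to 2.46%). EBF3 was found in 88.5% of the 113 POU4F2-positive cells (81.1 to 93.7%) and 52.5% of the POU4F2-negative cells (46.5 to 58.4%). EBF2 instead followed POU4F3: it was present in 42.7% of POU4F3-positive cells (36.2 to 49.4%) and 15.3% of POU4F3-negative cells (10.2 to 21.6%), but in 31.9% of POU4F2-positive and 30.6% of POU4F2-negative cells. POU4F3 was present in 60.2% of POU4F2-positive cells (50.5 to 69.3%) and 56.0% of POU4F2-negative cells, an overlap of the intervals. These cells were not thinned, and positive cells tend to be deeper.

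Within the POU4F family most positive cells showed 1 gene. POU4F3 alone was seen in 421 of 814 OTX2CRISPR cells (51.7%) and 108 of 172 CTRL cells (62.8%). POU4F2 alone was seen in 186 (22.9%) and 22 (12.8%) of these cells, and POU4F2 with POU4F3 in 147 (18.1%) of the OTX2CRISPR cells and 19 of the CTRL cells. In the EBF family, EBF1 and EBF3 together without EBF2 were seen in 289 of 1522 EBF-positive OTX2CRISPR cells (19.0%) and 36 of 320 CTRL cells (11.2%).

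Cells with EBF but no POU4F differed between the libraries in genes of dividing cells. After thinning, TOP2A or MKI67 was present in 16.6% of these cells in OTX2CRISPR (14.2 to 19.2%) and 49.0% in CTRL (41.9 to 56.2%). Cells with both families had such a UMI in 3.77% of cases in OTX2CRISPR (2.40 to 5.60%) and 4.17% in CTRL (1.37 to 9.46%). In cells with neither family the shares were 35.4% in OTX2CRISPR and 41.9% in CTRL. OTX2CRISPR EBF-only cells had CRABP1 at 2118 CPM and BRINP2, whose product is linked to cell cycle control in neural cells, at 224 CPM, against 117 and 10.2 CPM in CTRL. They had OTX2 at 851 CPM, against 1293 CPM in CTRL, and HES5, a Notch effector gene, at 130 CPM, against 688 CPM in CTRL. The BRINP2/CRABP1 gate held 22.4% of EBF-only cells in OTX2CRISPR and 1% in CTRL, against 9.80% and 0.296% of all cells.

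**Figure D5:**
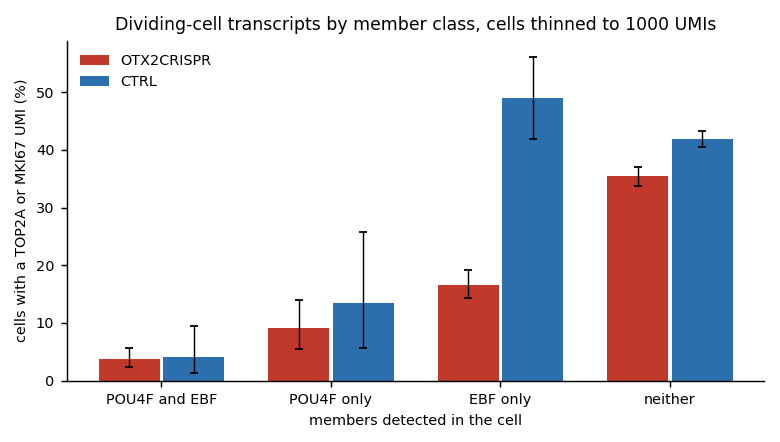
Share of cells (%) with a UMI of TOP2A or MKI67 by the families detected in the cell, OTX2CRISPR in red and CTRL in blue, in cells thinned to 1000 UMIs with classes taken before thinning. Bars are exact 95% counting intervals. The EBF-only class stands at 16.6% in OTX2CRISPR and 49.0% in CTRL, while the class with both families is at 3.77 and 4.17%.

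Cells with both a POU4F and an EBF gene had RGC genes in each library, with differences among them. NRN1 was at 277 CPM in OTX2CRISPR and 243 CPM in CTRL, GAP43 at 603 and 721 CPM, and ISL1 at 455 and 866 CPM. RBPMS2 itself was at 217 CPM in these OTX2CRISPR cells and 383 CPM in the CTRL cells. Among single genes chosen after their values were seen, OTX2 was at 209 CPM, against 28.5 CPM in CTRL, OLIG2 at 253 CPM, against 81.5 CPM, and ONECUT3 at 414 CPM, against 46.9 CPM. CRABP1 was at 1661 CPM in OTX2CRISPR and 257 CPM in CTRL. The RBPMS2 gate held 41.9% of these cells in OTX2CRISPR and 70.0% in CTRL, against 8.06 and 3.43% of all cells. The BRINP2/CRABP1 gate held 15.3 and 6.67% of them, against 9.80 and 0.296% of all cells.

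Many other genes of the RGC list, which also holds genes shared with other neurons, were at higher levels in OTX2CRISPR in whole libraries. Of the 49 tested genes of a 55-gene list, 29 were at least 2-fold higher and 1 at least 2-fold lower in OTX2CRISPR, against 8.71% and 5.67% of all genes compared, with a median log2 ratio of 1.29 against 0.049 for all tested genes. The list was chosen with earlier results of these data known, as was that of the upstream factors below. The counts of both lists are therefore descriptions and not independent evidence. NRN1 was at 76.9 CPM in OTX2CRISPR and 8.53 CPM in CTRL (log2 ratio 3.17), and SLIT1, a secreted axon guidance gene, at 887 and 164 CPM (2.44). SLIT1 was not particular to RBPMS2 cells: in OTX2CRISPR it was at 2099 CPM in the BRINP2/CRABP1 gate and 1614 CPM in the RBPMS2 gate. SNCG, the gamma-synuclein gene, was at 31.2 CPM in OTX2CRISPR and 5.89 CPM in CTRL (2.41). ATOH7 was near 0 in the cells with both families, at 4.28 CPM in OTX2CRISPR and 8.15 CPM in CTRL. This was not particular to them: in OTX2CRISPR it was at 2.05 CPM in BRINP2/CRABP1 cells with a factor and 0.631 CPM in LHX1 cells without one. Inside the RBPMS2 gate 3 of the 42 tested genes of the list were at least 2-fold higher and 0 lower in OTX2CRISPR, against 4.18% and 3.55% of all genes tested there, with a median of 0.17 against 0.006 for those genes. Of 22 upstream factors, 20 were tested in this gate, with 3 higher and 3 lower, against the same 4.18% and 3.55%. These included ONECUT3 at 217 CPM in OTX2CRISPR and 54.8 CPM in CTRL and OTX2 at 191 and 512 CPM.

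The genes whose pattern was most like each factor were ranked among 6583 genes by the enrichment in factor-positive over factor-negative cells, taking the lower value of the 2 libraries. TUSC5 was in the first 5 for 5 of the 6 factors, all but EBF2, and C3orf70 for 5 of 6, all but EBF1. For POU4F1 the first was EPB41L3, a membrane skeleton gene, with a log2 enrichment of 4.14 in OTX2CRISPR and 4.50 in CTRL. For POU4F2 it was RPRML, at 2.61 and 4.60, and EBF3 was among its first 5 at 2.50 and 4.74. For POU4F3 it was TUSC5, at 3.28 and 5.30, followed by RBPMS2 at 3.20 and 5.22. For EBF2 it was C3orf70, at 2.63 and 3.96, and POU4F3 was also among its first 5, at 2.48 and 4.88. TUSC5 led for EBF1, at 2.46 and 4.09, and for EBF3, at 4.05 and 5.16, with ISL1 second for both. Each of the enrichments of the first 5 genes was lower in OTX2CRISPR than in CTRL, the exception being ISL1 for EBF3, at 4.21 in OTX2CRISPR and 4.0 in CTRL. These are descriptions across cells of 1 library each, and deeper cells enter the positive class more often.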

How the data were processed

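The authors aligned 10x reads to chick genome GRCg6a with Cell Ranger 3.0.2, per the labels and file headers, and deposited whole-number UMI counts per gene and cell. Further upstream settings are not given in the sources used here. From these counts, a cell was kept, after the study's code, if it had between 200 and 2500 detected genes, a mitochondria-related share (16 genes) of 0.4% or less and a ribosomal share (80 genes) of 50% or less. Doublets were not called; the deepest 5% of cells were left out as an alternative. UMIs were summed per gate and library, as CPM with exact Poisson intervals, log2 ratios with conditional binomial intervals and shares with Clopper-Pearson intervals (95%). With 1 library per condition no test was run. Genes with 20 or more UMIs over both libraries were compared, 2-fold counted as different, and a gene at 0 in 1 library was put at 3 UMIs.

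The factors, gates and gene lists were chosen with earlier results of these data known. Named partners were list genes with 100 or more UMIs past 2-fold (at most 12 per comparison), and the 5 genes most like each factor among those with 200 or more UMIs in each library, with 0.5 UMI added; genes given by member class or gate split were chosen after their values were seen. Alternatives covered the cell filter, scaling, cell weights, gate thresholds and overlap, thinning and deep cells. The computation of the ratio was checked on simulated data of the whole-library comparison: with 200 of 12937 genes changed, 95.9% of intervals held the true value, and 87.6% of genes with a log2 change of 1 and 99.0% of those with 2 were recovered. Counts were drawn as Poisson, the counting model of the intervals. The simulation therefore cannot show how the intervals hold where UMIs cluster in cells, as they do here. Python 3.11.15, numpy 2.4.6, scipy 1.17.1 and pandas 2.3.3 were used. No sequence is given.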

Additional observations from a re-analysis of the deposited data

Results flagged for a closer look

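POU4F3 had ratios of opposite direction in different gates. The log2 ratio of OTX2CRISPR over CTRL was 0.35 in RBPMS2 cells and 2.77 in TFAP2C cells, but -1.98 in BRINP2/CRABP1 cells. The counting intervals of the first and second lay above 0 and that of the third below it. The difference between the gates was not tested. With either BRINP2 or CRABP1 enough to enter the gate the third ratio turned to 1.02, and with 2 UMIs of RBPMS2 the interval of the first ran from -0.16 to 0.56. In CTRL the BRINP2/CRABP1 value rests on 16 UMIs in 10 of the 15 cells of the gate, and the TFAP2C value on 2 UMIs in 1 of the 235 cells of the gate. That TFAP2C cell also had RBPMS2.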

How the results depend on the processing

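No paired analysis was possible because each condition is 1 library that pools its retinas, so the matched eyes cannot be told apart within it. Of 391 recomputed values, 287 stayed within their counting interval, 101 moved further and 3 reversed, counting as reversed a change of sign only where the original interval left out 0. With 2 UMIs of each gate gene, the EBF3 ratio in RBPMS2 cells turned to -0.0037, and the summed EBF log2 ratio was 0.0503 in RBPMS2, 1.55 in BRINP2/CRABP1 and 1.63 in LHX1 cells (main values 0.21, -0.33 and 3.29). With either BRINP2 or CRABP1 in place of both, the ratio was 1.36 for POU4F, 1.02 for POU4F3 (both reversed) and 1.37 for EBF. The EBF sign changes in BRINP2/CRABP1 cells count as moved, since the original interval (-0.71 to 0.074) held 0. With all deposited barcodes, which return 25 OTX2CRISPR and 55 CTRL cells, the EBF ratio was -0.80 in BRINP2/CRABP1 and 2.38 in LHX1 cells, and the whole-library EBF3 ratio 1.94. The returned cells held 237 EBF3 UMIs in OTX2CRISPR and 317 in CTRL. They held 2 POU4F1 UMIs in OTX2CRISPR and 19 in CTRL, which puts the whole-library POU4F1 ratio below 2-fold. Equal weight per cell gave 0.34 for EBF in RBPMS2 cells and 2.41 for EBF3 in whole libraries, and leaving out the deepest 5% of cells gave 2.37 for that EBF3 ratio. The EBF ratio in TFAP2C cells was 2.0, 3.12 with cells in 1 gate only and 3.49 without the deepest cells. Scaling by the median of gene ratios, the second thinning draw and leaving out the 38 shared barcodes moved no value beyond these limits; the last 2 were added after seeing the data.

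Shares of cells depend on depth. In the following pairs OTX2CRISPR stands before CTRL. In cells thinned to 1000 UMIs, requiring 2 UMIs in place of 1 gave 1.84 and 0.259% for POU4F and 7.49 and 1.28% for EBF. Thinned to 2000 UMIs, the shares were 16.9 and 2.90% for POU4F, 30.9 and 5.49% for EBF, 69.4 and 70.6% for EBF in POU4F-positive cells and 37.9 and 37.3% for POU4F in EBF-positive cells. The gates then held 6.67 and 2.75% (RBPMS2), 13.5 and 3.95% (LHX1) and 2.66 and 3.75% (TFAP2C) of cells, and BRINP2/CRABP1 8.66% in OTX2CRISPR. Without thinning the shares were 16.5 and 3.39% for POU4F, 30.9 and 6.31% for EBF, 75.4 and 69.8% for EBF in POU4F-positive cells, 40.3 and 37.5% for POU4F in EBF-positive cells, and 8.06 and 3.43% (RBPMS2), 9.80 and 0.296% (BRINP2/CRABP1), 17.6 and 4.77% (LHX1) and 3.49 and 4.63% (TFAP2C) for the gates. The order of the libraries was the same under each of these settings for POU4F, EBF and the RBPMS2 and LHX1 gates, but not for the TFAP2C gate, which held 1.78% of OTX2CRISPR and 1.73% of CTRL cells at 1000 UMIs.

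Limits come first from the single library per condition, so that a difference between the conditions and one between the libraries cannot be told apart. Gates of low-count genes miss cells, and POU4F1, with 44 CTRL UMIs, is measured least precisely.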
